A study of Mus musculus with 3 samples.

Results

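Fibroblast-rich bins are small squares of thymus sections in which transcripts of 6 fibroblast genes were concentrated. UMI counts (unique molecular identifiers, 1 for each captured transcript) were summed in squares of 27 µm, and squares in which 300 genes or more were detected and mitochondrial UMIs did not exceed 30% were kept, 56744 in all. A kept bin was called fibroblast-rich when at least 4 of its UMIs, and at least 0.3% of them, came from Col1a1, Col1a2, Col3a1, Pi16, Clec3b and Fn1 together. This gave 200 of the 56744 bins, namely 90 in the section labelled KO1134, 33 in the section labelled KO1308 and 77 in the section labelled WT1101. The values of these 6 genes chose the bins, and they are therefore given as a description with no test. A bin is a region of tissue that can hold several cells of different types or parts of them, so that fibroblast-rich is a property of a bin and not a cell type.

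The sections came from thymuses of female C57BL/6 mice perfused through the heart with cold PBS. KO1134 was taken at 17 weeks and KO1308 at 21 weeks from mice that lack Trp53 (Trp53-/-, KO), and WT1101 was taken at 17 weeks from a mouse with both copies (Trp53+/+, WT). The names and ages of the KO sections follow the GEO labels. The study's own sample list could not be fully reconciled with them, so that which KO section carries which name and age is uncertain. With 1 WT section, values of the genotypes are set side by side and no test between them was made. Frozen sections were captured on barcoded slides, and the KO and WT tissue was permeabilised for different times, so that genotype, permeabilisation and the single section cannot be told apart.

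Fibroblasts build the collagen-rich capsule of the thymus, the septa that run inwards from it and the sheaths around its vessels. They secrete fibrillar collagens, fibronectin, small proteoglycans and elastic fibre proteins, and they supply the thymus with growth factors and chemokines. Fibroblasts marked by Pi16 lie in the outer sheath of vessels and in fascia of many tissues, and the outside of the organ borders on mesothelium, fat and lymph nodes.

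Trp53, the targeted gene, was measured first as a check of the labels. In the other kept bins it reached 17.0 CPM (counts per 1e6 UMIs) in KO1134, 25.3 CPM in KO1308 and 79.9 CPM in WT1101. Fibroblast-rich bins held 0, 1 and 3 Trp53 UMIs in the same order, too few to compare. Which stretch of the gene is deleted is not given in the sources used here, and UMIs from the remaining part would still be counted. The sections held 21089885 to 41581477 UMIs. Barcode sequences shared by 2 sections numbered 5486 to 13503, of 333982 to 833765 spots with UMIs in each section. The median depth of fibroblast-rich bins was 1074.5 UMIs in KO1134, 1269 in KO1308 and 1128 in WT1101, against 2650.5, 833 and 1352 UMIs in the other bins. The median mitochondrial share was 2.62%, 3.86% and 2.09% in fibroblast-rich bins and 1.01%, 1.08% and 0.676% in the other bins, and it was thus higher in the fibroblast-rich bins of every section.

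Among the 6 genes of the rule, the collagen genes Col1a1, Col1a2 and Col3a1 (chr11:94936224-94953042, chr6:4504814-4541544 and chr1:45311538-45349706 in GRCm38, all protein-coding and on the plus strand) encode the chains of the main fibrillar collagens. Col1a1 was at 424 CPM in the fibroblast-rich bins of KO1134, 517 CPM in KO1308 and 658 CPM in WT1101, and at 25.7, 26.0 and 11.2 CPM in the other bins. Col3a1 was at 1158, 1393 and 1175 CPM in the fibroblast-rich bins. Since the rule sets a floor for the sum of the 6 genes, these levels are partly fixed by the choice of bins. Fn1, which encodes fibronectin (chr1:71585520-71653200, minus strand), was at 1224 and 1325 CPM in the KO sections and at 431 CPM in WT1101. Pi16 (chr17:29317680-29330593, plus strand), a secreted peptidase inhibitor of adventitial fibroblasts, was at 473, 180 and 1035 CPM. The KO bins were thus chosen more often through Fn1 and the WT bins more often through Pi16. At least 50% of the 6-gene UMIs came from Fn1 in 24.4% of the fibroblast-rich bins of KO1134, 27.3% of those of KO1308 and 5.19% of those of WT1101. Macrophages also make fibronectin. Without Fn1 in the rule, 52 of 90, 16 of 33 and 65 of 77 bins would still have been chosen.

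The threshold cut through a continuum. The lowest share of a chosen bin was 0.3002% in KO1134, 0.321% in KO1308 and 0.302% in WT1101, and the highest share of a bin that had the 4 UMIs but not the share was 0.298%, 0.296% and 0.298%. Exactly 4 UMIs of the 6 genes were held by 28, 9 and 26 of the chosen bins. The chosen bins held 9.20% of all UMIs of the 6 genes in kept bins of KO1134, 6.10% in KO1308 and 11.7% in WT1101, so that most transcripts of these genes lay in bins outside the definition. At least 1 UMI of the 6 genes was found in 30.6%, 12.9% and 9.61% of the other bins.

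Fibroblast-rich bins made up 0.747% of the kept bins of KO1134 (95% exact binomial interval 0.601 to 0.918), 0.189% of those of KO1308 (0.130 to 0.266) and 0.282% of those of WT1101 (0.223 to 0.353). The intervals cover counting error only. The rule has a floor in UMIs and therefore depends on depth. With each bin thinned to 1000 UMIs and 1390, 10281 and 9530 shallower bins left out, the shares were 0.422%, 0.294% and 0.209%. The WT share was then the lowest and the KO1308 share was above it, the reverse of their order before thinning, and the thinned intervals of KO1308 (0.182 to 0.449) and WT1101 (0.147 to 0.287) overlapped. In bulk sums such as these, fewer fibroblasts and less RNA per fibroblast cannot be told apart.

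**Figure D1:**
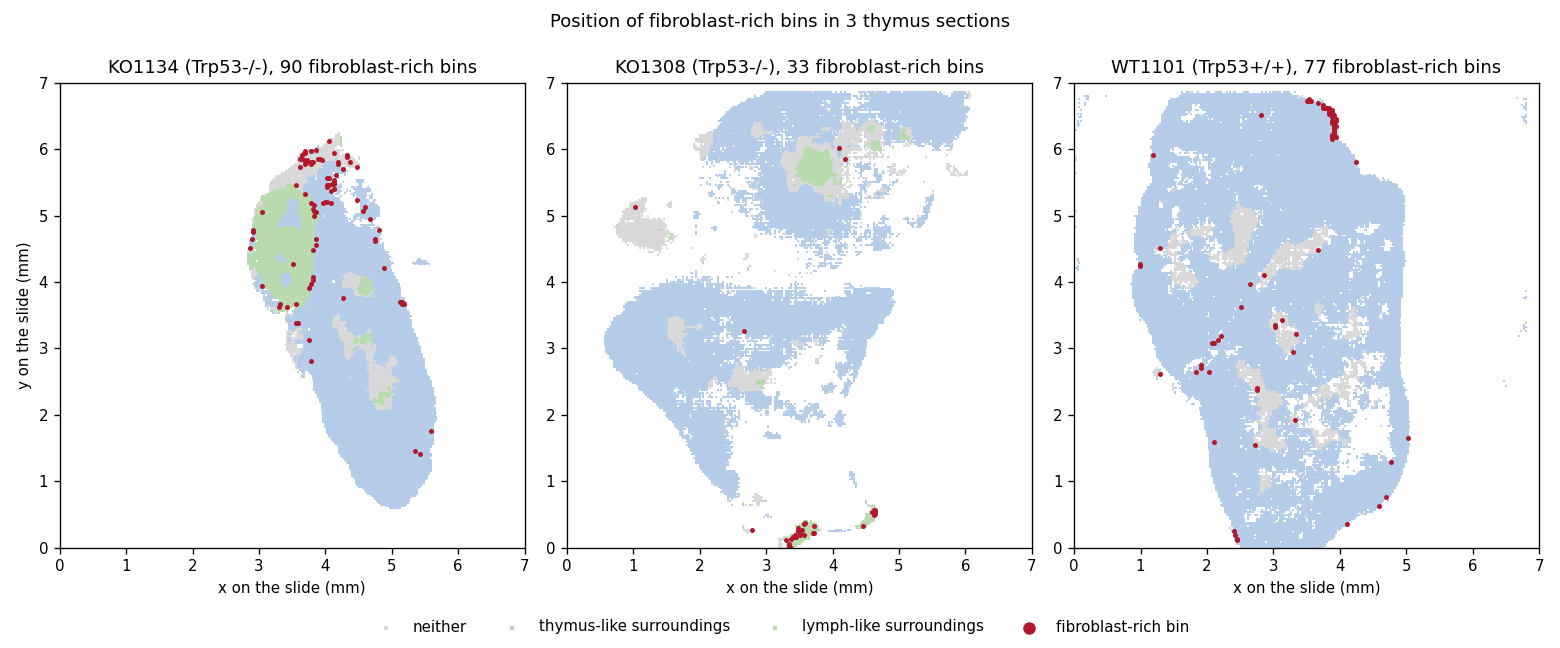
Positions of fibroblast-rich bins (red) on the 3 slides, with x and y in mm. Other kept bins are coloured by the genes of the surrounding 7 × 7 bins, as thymus-like (blue), lymph-like (green) or neither (grey). Of 77 fibroblast-rich bins in WT1101, 39 form a single patch at the upper right edge, and 26 of 33 in KO1308 lie in lymph-like surroundings, mostly at the lower border of the slide.

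The bins of the sections differed in where they lay. A surrounding area was called lymph-like when 3 B cell genes (Cd79a, Cd79b and Ms4a1) had more UMIs in it than 6 thymus genes (the thymocyte genes Cd8b1, Ptcra, Arpp21 and Themis and the cortical epithelial genes Psmb11 and Prss16). In KO1308, 26 of 33 fibroblast-rich bins (78.8%) had lymph-like surroundings against 3.67% of the other bins. In KO1134 these shares were 15.6% and 16.3%, and in WT1101 no bin of either class was lymph-like. The thymus area, where the 6 thymus genes reached at least 50% of their share in the whole section, held 52 of 90 fibroblast-rich bins of KO1134, 2 of 33 of KO1308 and 57 of 77 of WT1101. It held 79.1%, 82.0% and 91.0% of the other bins. The name capsule therefore fits the position of some bins only, and the bins are called by their rule here.

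Fibroblast-rich bins lay closer to the outer tissue edge than the other bins in every section. The edge was the outline of kept bins in connected groups of at least 20, so that outer gaps left by bins that failed the filter count as edge. The filter removed 443 bins of KO1134, 13763 of KO1308 and 4329 of WT1101, and whether these held tissue was not tested. With holes filled and the border of the capture area not counted as an edge, the median distance was 118 µm against 334 µm in KO1134. It was 54 µm against 173 µm in KO1308 and 60.4 µm against 659 µm in WT1101. The mean of the 3 differences was -311 µm (fibroblast-rich minus other). An exact permutation test that swapped the classes within sections gave a two-sided p of 0.25, which is the smallest that 3 sections allow. Within 100 µm of the edge lay 45.6% of the fibroblast-rich bins of KO1134, 93.8% of those of KO1308 and 63.6% of those of WT1101, against 16.9%, 33.3% and 8.27% of the other bins. In KO1308, 1 fibroblast-rich bin in a group of fewer than 20 kept bins had no distance. Most fibroblast-rich bins of KO1308 lay in small connected groups of kept bins, where distances are short for every bin. In connected groups of at least 200 bins they made up 0.0248% of the bins, and the difference of medians in KO1308 was -61.8 µm in place of -119 µm. Not all were at the edge, since the deepest lay 858, 564 and 1920 µm inside. With holes counted as edges the mean difference shrank to -77.4 µm, and the medians of WT1101 were 54 and 85.4 µm. The plot of cumulative distances shows the gap in each section.

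**Figure D2:**
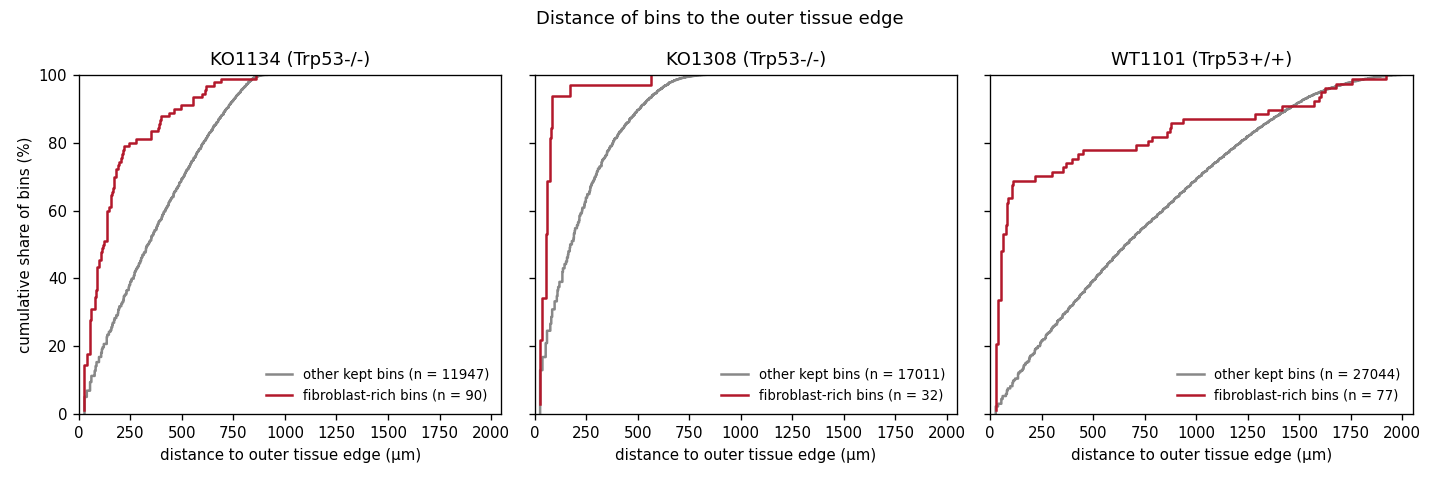
Cumulative share of bins (%) by distance to the outer tissue edge in µm, for fibroblast-rich bins (red) and other kept bins (grey) of each section. The red curve is to the left of the grey curve at the median of all 3 sections, and in WT1101 it rises steeply to 63.6% within 100 µm and then slowly up to 1920 µm, meeting the grey curve among the deepest bins.

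The bins also lay next to each other. Touching kept bins were counted as pairs, so that a bin that touched several fibroblast-rich bins was counted several times. In this count 10.4% of the neighbours of fibroblast-rich bins in KO1134, 20.1% in KO1308 and 23.2% in WT1101 were fibroblast-rich themselves. For the neighbours of the other bins it was 0.648%, 0.147% and 0.204%. Still, 45, 11 and 29 bins had no fibroblast-rich neighbour. The level of the 6 genes fell off over few bins. In the bins that touched a fibroblast-rich bin it was 820 CPM in KO1134, 1162 CPM in KO1308 and 658 CPM in WT1101, against 136, 140 and 70.4 CPM in bins at least 9 bins away (243 µm).

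**Figure D3:**
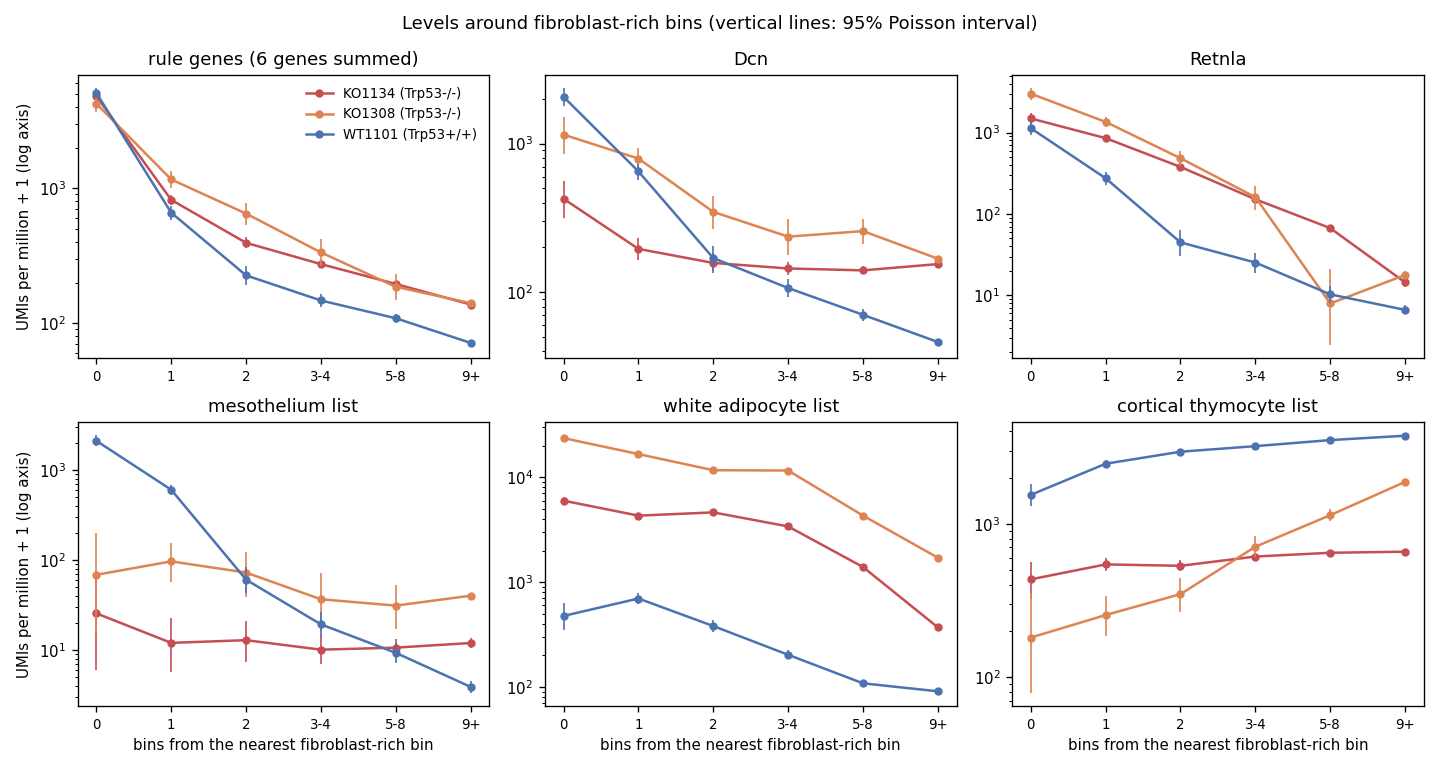
Levels in CPM plus 1 (log axis) by the number of bins to the nearest fibroblast-rich bin (0 marks the fibroblast-rich bins) in the 3 sections, with 95% Poisson intervals. Retnla falls from 1132 to 3010 CPM in the fibroblast-rich bins to 5.63 to 16.8 CPM at 9 bins and beyond, while the cortical thymocyte list is lowest in the fibroblast-rich bins of every section.

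Genes outside the rule were compared between the fibroblast-rich bins and the other bins of each section with edgeR's quasi-likelihood test on UMI sums, with section as a block. Of 16562 genes tested, 398 were higher (2.4%) and 49 lower (0.296%) in fibroblast-rich bins at a Benjamini-Hochberg adjusted p below 0.05. The bins were chosen by genes that the same cells express, so that these calls describe the chosen bins. The median log2 fold change over all genes was -0.06, and each log2 value below is a difference between fibroblast-rich and other bins. Of the 398 genes, 312 were higher in all 3 sections, and all 49 were lower in all 3. The fit does not ask for the same direction in every section, and some calls rested mostly on 1 section. Without WT1101 the counts were 126 higher and 11 lower.

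Retnla had the clearest rise. It encodes a secreted resistin-like protein that is known from adipose tissue and from macrophages in type 2 responses (chr16:48842551-48844461 in GRCm38, plus strand, protein-coding). It was at 1493 CPM in the fibroblast-rich bins of KO1134, 3010.3 CPM in KO1308 and 1132 CPM in WT1101, and at 71.3, 35.9 and 10.3 CPM in the other bins. It was thus higher in the fibroblast-rich bins of every section. At least 1 Retnla UMI was found in 63.3%, 69.7% and 24.7% of the fibroblast-rich bins against 8.85%, 2.02% and 0.897% of the other bins. The log2 fold change was 6.08 ± 0.32 (3 sections, edgeR adjusted p = 5.2e-78). It stayed called in 11 of 11 alternatives, between 5.49 and 6.89, with edgeR or DESeq2 adjusted p-values of up to 0.00032. Each ± here and below is a standard error worked back from the edgeR test statistic. It does not measure the spread between the 3 sections, for which the CPM of each section are given. In 1 WT bin 46 of the 105 Retnla UMIs of that section were found.

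Of the other genes with the largest rises, Igfbp6 (an IGF-II binding protein; log2 fold change 6.04 ± 0.38), Cd248 (endosialin, a surface protein of stromal cells; 5.86 ± 0.76), Mrgprg (a Mas-related G protein-coupled receptor; 6.69 ± 1.02) and the predicted gene Gm26771 (5.48 ± 1.00) also stayed called in each of 11 alternatives. Mrgprg was at 179 CPM in KO1134, 22.5 CPM in KO1308 and 75.5 CPM in WT1101 and at 2.48, 0.924 and 0.271 CPM in the other bins. It rested on 22, 1 and 7 UMIs in 18, 1 and 4 bins. Gm26771 rested on 8, 2 and 8 UMIs. The remaining 5 were Osr1, a transcription factor of connective tissue (5.89), Fndc1 (5.60), Rspo1, a Wnt signal enhancer (5.36), Efhd1 (5.29) and Wnt5a, a Wnt ligand (5.28). Without WT1101 these 5 were no longer called, with adjusted p-values of up to 0.96 over all alternatives. All 5 rested on few UMIs in the fibroblast-rich bins of KO1134, KO1308 and WT1101. Osr1 had 3, 2 and 11 UMIs there and Fndc1 4, 3 and 15. Rspo1 had 1, 2 and 5, Efhd1 5, 1 and 4, and Wnt5a 2, 1 and 6.

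The genes of 14 lists of stromal functions were counted next. Of their 154 genes, 147 were tested, 68 were higher and 0 lower, and their median log2 fold change was 2.19 against -0.06 over all genes tested. Without WT1101, 27 of 149 were higher, and with DESeq2 51 of 147. As a check of the name fibroblast, 7 of 8 further fibroblast genes (Dcn, Lum, Dpt, Mfap5, Col6a2, Col14a1 and Pcolce) were higher. The receptor Pdgfra was at 24.5, 112 and 32.3 CPM against 19.1, 24.8 and 5.89 CPM and was not called (adjusted p = 0.26, edgeR).

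**Figure D4:**
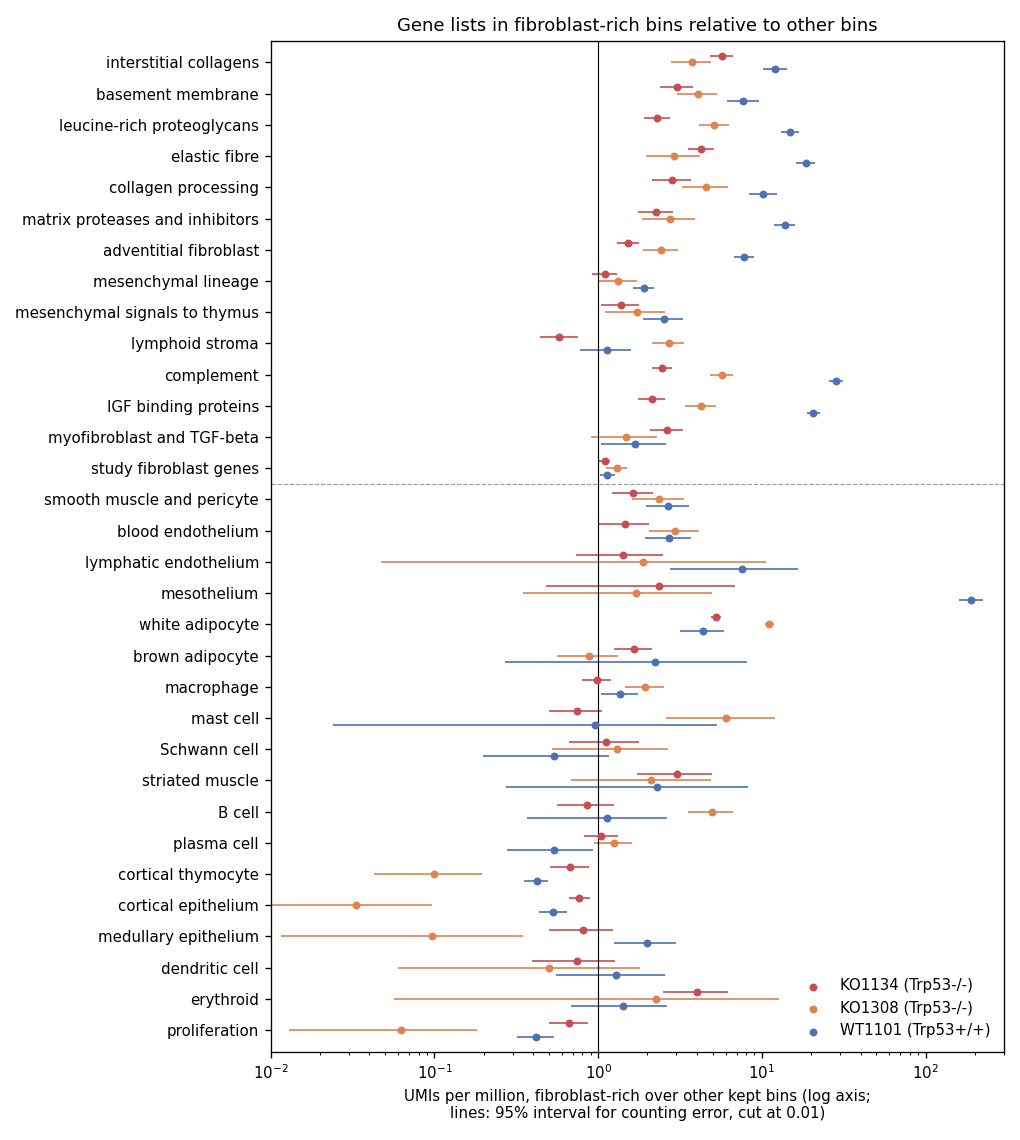
Ratio of the summed CPM of each gene list in fibroblast-rich over other kept bins (log axis) in KO1134, KO1308 and WT1101, with 95% intervals for counting error. The upper rows, over the dashed divider, are the stromal lists and the lower rows those of other cell types, and the vertical line marks equal levels. The complement list runs from 2.46 in KO1134 to 28.4 in WT1101, and the cortical thymocyte list is below 1 in all 3 sections.

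Of the interstitial collagens, which form fibrils and the filaments around them, 8 of 12 were higher and 4 were not called (median log2 fold change 2.83). Col6a3, a chain of the beaded filaments of collagen VI, was at 228, 180 and 280 CPM in the fibroblast-rich bins of KO1134, KO1308 and WT1101 against 38.0, 46.0 and 16.3 CPM (log2 fold change 3.16 ± 0.38). Col6a2 was similar (3.29), and Col14a1, which sits on collagen fibrils, was at 106, 22.5 and 313 CPM against 8.19, 9.40 and 6.48 CPM (4.33). The WT section was the highest for Col14a1, and KO1308 rested on 1 UMI. Of the basement membrane genes, which form the sheet under epithelium and around vessels, 5 of 12 were higher. Nid1, which links laminin to collagen IV, was at 97.9, 89.9 and 269 CPM against 11.9, 16.4 and 4.81 CPM (4.17).

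Of 8 leucine-rich proteoglycans, which bind collagen and set fibril width, 4 were higher. Dcn (decorin, chr10:97479609-97518143, plus strand) was at 424 CPM in KO1134, 1146 CPM in KO1308 and 2059 CPM in WT1101 against 150, 178 and 59.7 CPM (3.34 ± 0.30, edgeR adjusted p = 6.9e-25). KO1134 differed least from its other bins. Bgn and Lum were also higher (2.46 and 2.45), while Podn was at 155, 382 and 75.5 CPM and was not called. Of 14 elastic fibre genes, 8 were higher. Mfap5, a microfibril protein of adventitial fibroblasts, was at 106, 89.9 and 507 CPM against 4.54, 2.72 and 15.1 CPM (5.06), and Fbn1, the fibrillin of these microfibrils, was at 261, 44.9 and 162 CPM against 16.7, 24.2 and 6.02 CPM (3.84).

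Of the collagen processing genes 5 of 12 were higher, and of the matrix proteases and inhibitors 5 of 11. Serpinh1, a collagen chaperone, was at 147, 427 and 334 CPM against 29.0, 54.5 and 16.4 CPM (3.46), and Pcolce, which speeds up the removal of the procollagen tail, had a log2 fold change of 3.17. Timp2, an inhibitor of matrix proteases, was at 147, 270 and 1132 CPM against 77.2, 83.0 and 54.7 CPM (2.70). The WT section stood far above the KO sections for Timp2.

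The adventitial fibroblast list, which holds genes that accompany Pi16, had 10 of 12 members higher (median 3.77). Dpt, a small matrix protein of fibroblasts, was at 155, 135 and 129 CPM against 16.1, 17.7 and 5.52 CPM (3.80), and the sections were alike. Cd34, a surface protein shared with endothelium, was at 48.9, 202 and 280 CPM (3.84), and Ly6a, which T cells and endothelium also make, was at 612, 539 and 636 CPM against 565, 425 and 140 CPM (1.09). The call for Ly6a rested on WT1101, since both KO sections were close to their other bins. Of the mesenchymal lineage genes 4 of 10 were higher. Vim, an intermediate filament of mesenchymal cells, was at 318, 629 and 895 CPM against 331, 163 and 114 CPM (1.87), so that KO1134 was not higher for it. Thy1 marks fibroblasts and also thymocytes, and it was not called (log2 fold change -0.39).

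Stroma also gives signals to thymus and lymphoid tissue. Of 10 genes for mesenchymal signals to the thymus 2 were higher, Il33 and Wnt5a. Il33, an alarmin cytokine, was at 97.9, 89.9 and 86.2 CPM against 12.2, 12.2 and 6.53 CPM (3.41 ± 0.66). Wnt5a rested on 2, 1 and 6 UMIs. Cxcl12, the chemokine that attracts thymocyte progenitors, was at 261, 157 and 75.5 CPM against 212, 170 and 139 CPM (0.05 ± 0.35). Of 8 lymphoid stroma genes, Cxcl13 alone was called, a chemokine that attracts B cells. It was at 8.16 CPM in KO1134, 1303 CPM in KO1308 and 0 in WT1101, and its call rested on 58 UMIs of KO1308, where B cell genes were also high. Ccl21a, whose symbol stands for more than 1 gene ID, was at 212, 135 and 86.2 CPM against 512, 329 and 98.3 CPM, summed over these IDs. Its log2 fold change of -0.78, which was not called, is that of 1 of these IDs.

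Complement genes were higher without exception, 8 of 8 with a median log2 fold change of 3.07. C3, the central component, was at 1028, 2044 and 2727 CPM against 359, 361 and 97.7 CPM (3.14 ± 0.29), and C4b was at 131, 292 and 399 CPM against 48.1, 32.7 and 3.70 CPM (4.02). Both followed the order KO1134, KO1308, WT1101. Of the 6 IGF binding proteins, 5 were higher. Igfbp6 was at 163, 202 and 2016 CPM against 7.64, 7.77 and 9.47 CPM, and Igfbp5 was at 97.9, 404 and 2307 CPM against 84.0, 215 and 152 CPM (2.10). The WT section was above both KO sections in both genes.

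Of 9 myofibroblast and TGF-beta genes tested, Postn was called. This matrix protein of activated fibroblasts was at 400 CPM in KO1134, 292 CPM in KO1308 and 64.7 CPM in WT1101 against 43.9, 76.1 and 14.9 CPM (2.74 ± 0.38). Here the KO sections were above the WT section. Of the fibroblast genes that the study itself names, which were chosen with data of this study and are no independent evidence, 3 of 17 were higher (Jun, Mt1 and Postn), with a median log2 fold change of 0.26. They include ribosomal and stress genes that many cells make, such as Fau (2333, 2269 and 1789 CPM, not called).

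Some markers of other cell types were higher as well. All 6 called members of the white adipocyte list, of 7, were higher, among them Cfd, which encodes the protease adipsin (2284, 12760 and 194 CPM against 302, 730 and 8.95 CPM, 3.99), Retn (4.50) and Adipoq (3.14). The summed list was at 5980 CPM in KO1134, 23633 CPM in KO1308 and 474 CPM in WT1101. At least 1 UMI of the list was held by 63.3%, 93.9% and 10.4% of the fibroblast-rich bins. In the other bins the share was 39.2%, 27.3% and 9.64%. The 44 UMIs of WT1101 thus lay in 8 of 77 bins, and the share of bins with the list was hardly higher there. Of the mesothelium list 4 of 4 tested genes were called. Upk3b had 0, 0 and 80 UMIs and Msln 0, 1 and 67, so that both calls rested on WT1101, where the list was at 2113 CPM against 24.5 and 67.4 CPM in the KO sections. In smooth muscle and pericytes 3 of 9 genes were higher (Acta2 at 48.9, 157 and 108 CPM), in blood endothelium 2 of 9, in lymphatic endothelium 1 of 3 and in macrophages 1 of 9, the mannose receptor Mrc1. The endothelial genes summed to 286, 764 and 420 CPM against 196, 259 and 156 CPM. Of the B cell list Cd79b was called, and the list was at 944 CPM in KO1308 against 220 and 53.9 CPM in the other 2 sections. No gene of the lists for brown adipocytes, mast cells, Schwann cells, striated muscle, plasma cells, medullary epithelium, dendritic cells or erythroid cells was called. The part of these cells in the values above was not tested.

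Genes of thymocytes and cortical epithelium were lower. Of the cortical thymocyte list, 4 of 7 were called lower (Arpp21, Cd4, Cd8b1 and Dntt). Cd8b1, a chain of the CD8 coreceptor, was at 40.8, 44.9 and 464 CPM against 77.7, 493 and 1118 CPM (-1.42 ± 0.35, edgeR adjusted p = 0.0031), and Dntt, the enzyme that adds bases to T cell receptor joints, was at 269, 44.9 and 614 CPM against 378, 552 and 1120.4 CPM (-0.97). Both were lower in every section, with the smallest ratio in KO1308 and, for Cd8b1, the largest difference in CPM in WT1101. Of the cortical epithelium list 2 of 5 were lower, Ccl25 (-1.14) and Tbata (-1.08), and of 5 proliferation genes 2, Birc5 (-1.68) and Top2a (-1.44). The 10 genes with the largest falls all had few UMIs in the fibroblast-rich bins. Cenpf, a kinetochore gene, and Slc7a11, a cystine transporter, had 0 UMIs there. At the level of the other bins 10.4 and 10.03 UMIs would have been found, so that with a floor of 3 UMIs over the 3 sections they were at least 3.48-fold and 3.34-fold lower. Camk4, Rbmx, Spo11, 4930519F09Rik, Ncapd2, Dgke, Thoc2 and Sars fell by 2.42 to 3.74 on the log2 scale. Of 11 alternatives the call was kept in 1 for Sars, 2 for Slc7a11, 3 for 4930519F09Rik, 4 each for Cenpf, Camk4, Spo11 and Dgke, 5 for Ncapd2, 6 for Thoc2 and 7 for Rbmx. With no replicate block 1 gene was lower in all.

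Within a section the fibroblast-rich bins fell into patches, formed by linking bins at most 5 bins (135 µm) apart and keeping patches of at least 8 bins. KO1134 had patches of 20, 19 and 12 bins and 39 scattered bins, KO1308 had a patch of 20 and 13 scattered bins, and WT1101 had a patch of 39 and 38 scattered bins. The patch of 39 in WT1101 lay at a median of 54 µm from the edge and carried all 196 UMIs of the mesothelium list in the fibroblast-rich bins of that section (4437 CPM, 95% Poisson interval 3837 to 5103), whereas the 38 scattered bins held 0 (upper bound 75.9 CPM). Its leading genes included Wt1, Upk3b, Upk1b, Msln and Lrrn4, known from mesothelium, together with Aldh1a2, which makes retinoic acid, and Igfbp6. It held 183 of the 187 Igfbp6 UMIs. The IGF binding proteins summed to 10639 CPM there and to 1235 CPM in the scattered bins of the same section, and complement to 9009 and 1523 CPM. The interstitial collagens, in contrast, were at 1471 CPM in the patch and at 1502 CPM outside it. The rule itself asked for collagen transcripts, and its part in these collagen levels was not tested.

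In the KO sections no patch carried more than 2 mesothelium UMIs. The patch of 20 in KO1308 had 18 bins with lymph-like surroundings, and it held all 58 Cxcl13 UMIs (2011 CPM), a B cell list at 1179 CPM and a white adipocyte list at 25727 CPM. The scattered bins of KO1308 had the adipocyte list at 19779 CPM. In KO1134 the adipocyte list was at 5125 CPM in the patch of 20, 14625 CPM in the patch of 19, 3306 CPM in the patch of 12 and 4702 CPM in the scattered bins. The patch of 20 in KO1134 was led by Tnfaip6, a hyaluronan-binding protein made on inflammatory signals (755 CPM, 14 UMIs). It also held Postn at 1025 CPM (19 UMIs). In the patch of 19 Scd1, a fatty acid desaturase, was at 9712 CPM (170 UMIs). Col6a5 was at 457 CPM there, from 8 UMIs, the fewest with which a gene could lead a patch. The patch of 12 lay deeper (median 367 µm) and had Mgp, an inhibitor of calcification, at 1289 CPM, and Sparcl1, a matrix protein of vessel walls and stroma, at 1569 CPM. Patches were found from positions alone, but their leading genes are a description of the bins and were not tested. The bars for each patch show interstitial collagens between 897 and 1942 CPM in every patch, while the mesothelium, adipocyte and B cell lists are each high in few of them.

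**Figure D5:**
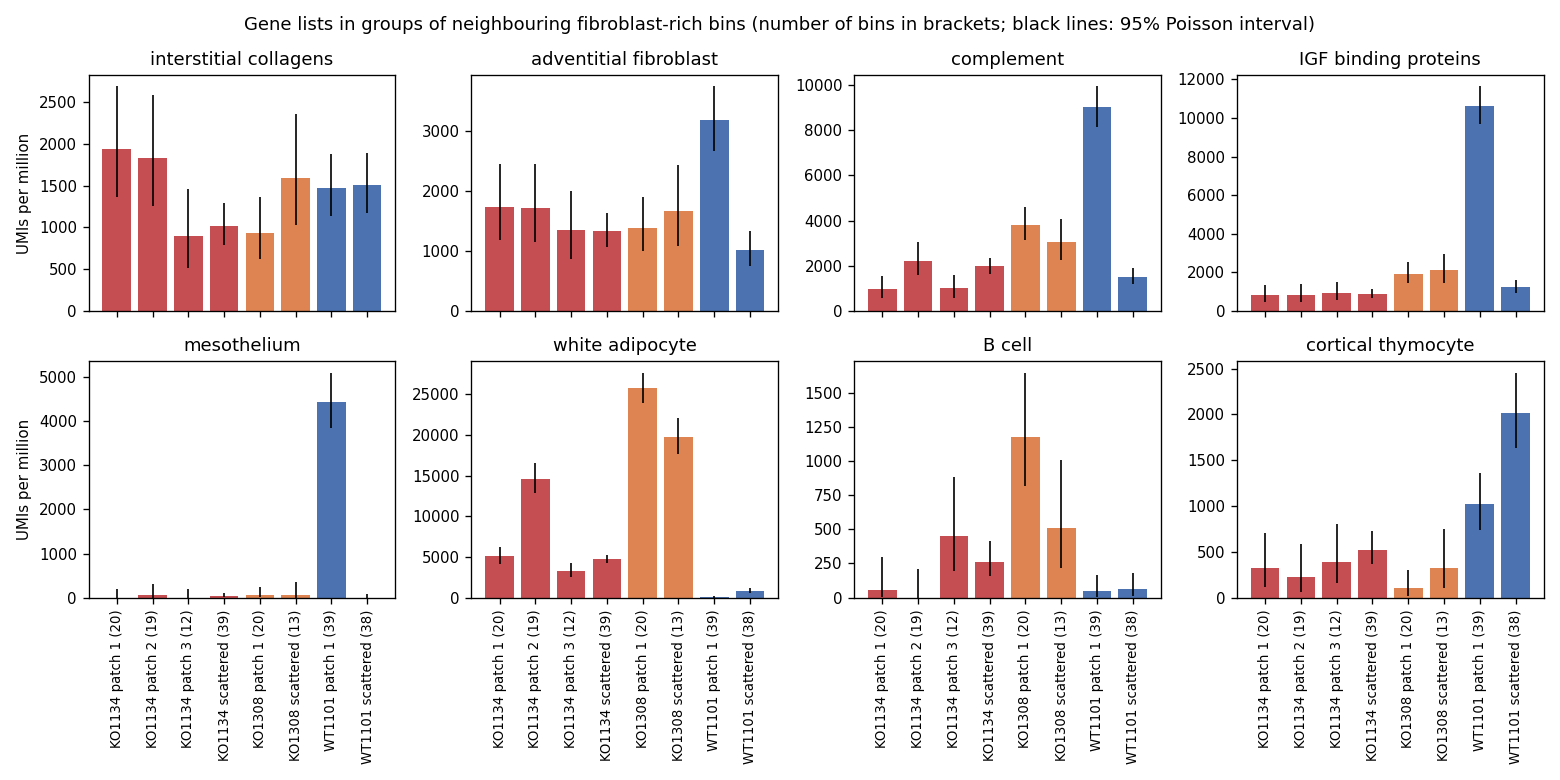
Summed CPM of 8 gene lists in each patch of fibroblast-rich bins and in the scattered bins of KO1134 (red), KO1308 (orange) and WT1101 (blue), with 95% Poisson intervals and the number of bins in brackets. The mesothelium list is at 4437 CPM in the patch of 39 in WT1101 and at most at 69.3 CPM elsewhere, and the white adipocyte list is between 19779 and 25727 CPM in KO1308.

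Fibroblast-rich bins at the tissue edge (within 100 µm) were compared with those in the interior in the same way. Of 619 genes tested, 4 were higher at the edge (0.646%) and 1 was lower (0.162%). Cfd was at 3715 CPM at the edge and 1399 CPM in the interior of KO1134, at 13230 CPM and 0 in KO1308 and at 307 CPM and 0 in WT1101 (log2 fold change 2.41 ± 0.41, edgeR adjusted p = 3.1e-06). Igfbp5 was at 171 and 52.8 CPM, 435 CPM and 0, and 3191 and 790 CPM (1.92). The mitochondrial gene mt-Nd2 (1.53) and Gm29216 (1.18), annotated as an unprocessed pseudogene and therefore uncertain, were the other 2. Sparcl1 was lower at the edge, at 534 against 1030 CPM, 700 against 1981 CPM and 154 against 1083 CPM (-1.65 ± 0.40, adjusted p = 0.01). The interior of KO1308 had 2 bins and 2019 UMIs only, and without a replicate block no gene was called in either direction.

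Inside the thymus area 0 genes were higher (0%) and 7 lower (1.17%) than outside it, of 599 genes tested with edgeR, and 11 and 43 had an unadjusted p below 0.05. The 7 are all named, 5 of them after their values were seen because they were not lower in every section. Of the 7, Scd1 (-2.62), Car3 (-2.40), Fasn (-2.49), Cfd (-2.30) and Fabp4 (-2.17) are genes of fat cells and lipid synthesis. Cfd was at 757 CPM inside and 5217 CPM outside in KO1134 and at 0 and 13366 CPM in KO1308, but at 249 and 41.0 CPM in WT1101. Fat cell genes thus rested on the KO sections. The interferon-inducible gene Ifi27 (-1.82) was lower inside in KO1134 (409 against 1668 CPM) and in WT1101 (380 against 944 CPM). In KO1308 it was at 495 against 1200.1 CPM, but the inside value was 1 UMI and shows no direction. Its call was kept in 1 of 9 alternatives. The last was Aplp2 (-1.81). The 2 bins of KO1308 inside the thymus area held 2019 UMIs, and DESeq2 called 0 genes higher and 0 lower. Without KO1308 no gene was called, and without WT1101 1 was higher and 35 were lower.

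Between genotypes, the rule genes apart, the fibroblast-rich bins of both KO sections were set beside those of WT1101, which both comparisons share. Of genes with at least 20 UMIs in the 2 sums together, 9.48% were at least 2-fold higher and 13.5% at least 2-fold lower in KO1134, and 12.7% and 24.7% in KO1308. At the upper end, Car3, an enzyme abundant in fat cells, was at 1362 CPM in KO1134 and 3190.0 CPM in KO1308 against 53.9 CPM in WT1101, which are ratios of 25.3 (95% interval 10.6 to 78.9) and 59.2 (24.8 to 185). Fasn, Scd1, Cfd, Fabp4 and Retn, also of fat cells, stood beside it, with ratios of 5.30 to 69.0. The other 2 of these 8 genes were Gm30211 and Igha, the heavy chain of IgA made by plasma cells (2708, 2157 and 151 CPM). All of these were also more abundant in the other bins of the KO sections than of the WT section.

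At the lower end, Igfbp5 was at 97.9 and 404 CPM in KO1134 and KO1308 against 2307 CPM in WT1101, ratios of 0.0424 (0.0216 to 0.0757) and 0.175 (0.102 to 0.284), and Igfbp6 had ratios of 0.0809 and 0.100. Timp2, Mgp, Crip1 and S100a6 followed, and the T cell receptor genes Trbc1 and Trbc2. In the other bins Trbc1, Trbc2 and Igfbp6 were also lower in both KO sections, with Trbc2 at 1021 and 1960 CPM against 4317 CPM. Timp2, Mgp and S100a6 were higher there in both, and Igfbp5 and Crip1 went different ways in the KO sections. In the scattered bins, without the patches of any section, the IGF binding proteins were at 1235 CPM in WT1101, between KO1134 (903 CPM) and KO1308 (2106 CPM). Of the lists, the interstitial collagens differed by less than counting error, with ratios of 0.845 (0.667 to 1.07) and 0.785 (0.560 to 1.09). The bins were chosen partly by Col1a1, Col1a2 and Col3a1, and the part of this choice in the collagen ratios was not tested. The ratios were 0.385 and 0.265 for the elastic fibre genes, 0.322 and 0.712 for the leucine-rich proteoglycans and 0.338 and 0.698 for complement. For these lists too the scattered bins were set side by side, after the values of the WT patch were seen. The part of the patches in the ratios was not tested. The scattered bins of the 3 sections lay in unlike places. Their median distance to the edge was 413 µm in WT1101, 85.4 µm in KO1134 and 54 µm in KO1308. In the thymus area lay 30 of 38, 30 of 39 and 2 of 13 of them in the same order. In the scattered bins of WT1101 the elastic fibre genes were at 1029 CPM, near the scattered bins of KO1134 (1092 CPM) and KO1308 (1085 CPM, 17 UMIs). The proteoglycans were at 1338 CPM there, above the scattered bins of KO1134 (888 CPM) and below those of KO1308 (2106 CPM). Complement was at 1523 CPM, below the scattered bins of both KO1134 (1980 CPM) and KO1308 (3063 CPM). Per UMI of the 6 rule genes the KO1308 ratios were 0.854 (0.668 to 1.08) for proteoglycans and 0.836 (0.694 to 1.00307) for complement. Those of KO1134 changed little, to 0.340 (0.271 to 0.423) and 0.357 (0.302 to 0.421). Under the stricter rule the KO1308 ratios were 0.320 (0.115 to 0.719) and 0.317 (0.135 to 0.641), from 4 bins. The myofibroblast list had ratios of 2.67 (1.62 to 4.56) and 1.98 (1.02 to 3.85). Postn alone gave 49 of its 74 UMIs in KO1134, 13 of 20 in KO1308 and 6 of 21 in WT1101. In the other bins the list was at 230, 304 and 134 CPM, and with the stricter rule of 6 UMIs and 0.5% the KO1308 ratio was 1.81 (0.320 to 7.02). The white adipocyte list had ratios of 12.6 and 49.8. These intervals cover counting error between the 3 sections and say nothing of the spread between mice.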

How the data were processed

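Spatial UMI counts of 3 thymus sections were analysed. Per the study's methods, the authors aligned reads with STAR and counted them with BSTMatrix, and the deposited values are raw UMI counts per gene and barcoded spot (build GRCm38, from the submitters' processing notes). Spots were summed in 27 µm bins, and 200 fibroblast-rich bins were selected. The members and the 32 gene lists were chosen with earlier results of these data known. UMIs were summed per section and class, and edgeR 4.0.16 (quasi-likelihood test, section as block, filterByExpr, TMM factors from genes with at least 10 expected UMIs in the smallest sum or else the 200 most abundant, adjusted p below 0.05) was used in R 4.3.3, with DESeq2 1.42.0 as an alternative. Named genes were the 10 with the largest change in each direction among called genes with at least 50 UMIs in all, changed the same way in every section, and the most abundant up to 5 of each list. Between genotypes, 8 genes at each end were named. Leading genes of patches, and a few list genes outside this rule (such as Pdgfra), were named after their values were seen. Exact Poisson and binomial intervals are at 95%. On simulated counts for 16330 genes of the comparison of fibroblast-rich with other bins, 22% of 50 genes changed 2-fold, 96% of 50 changed 4-fold and 100% of those changed 8-fold or 16-fold were recovered, with 0 false calls. The changed genes had on average at least 2 expected UMIs in the fibroblast-rich sums and changed alike in every section, with a dispersion of 0.05. Recovery of sparser genes, or of changes that differ between sections, was not simulated. The genes for the TMM factors were chosen with the help of this simulation, so that it is no independent check of them. Of 54838 gene IDs 54723 matched the GENCODE annotation. Section numbers pair no samples. Doublets do not apply to bins, and spots outside the kept bins were left out.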

Additional observations from a re-analysis of the deposited data

Results flagged for a closer look

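Bins that failed the filter on genes or mitochondrial UMIs entered no comparison. In the sections of the Trp53-/- mice their UMIs held more of the 6 fibroblast genes than those of WT1101, at 498 CPM in KO1134 (95% Poisson interval 359 to 673) and 222 CPM in KO1308 (204 to 241) against 138 CPM in WT1101 (116 to 165). The kept bins were at 206, 168 and 99.1 CPM. The level in KO1134 rested on 42 UMIs of 443 bins. Its cause was not tested. With 3 sections no group was large enough to look for outlying samples.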

How the results depend on the processing

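Of the named genes, 135 of 218 refits of the comparison with other bins kept the call, 83 lost it and 0 changed direction, and at the edge 17 of 52 kept it. For the thymus area 5 of 18 refits kept the call, 4 of 9 for Scd1 and 1 of 9 for Ifi27. Counts of higher and lower genes against the other bins were 140 and 6 with at least 6 UMIs and 0.5%, 265 and 40 without Fn1, 234 and 37 with DESeq2, and 181 and 1 with no replicate block. Leaving out 1 section each gave 126 to 300 higher and 11 to 21 lower genes. At the edge 0 and 0 were called with 50 µm bins, with the stricter rule, with holes not filled and with no replicate block, 1 and 0 with DESeq2, 15 and 1 with RLE factors, 2 and 1 without a filter, and 4 and 2 with an edge zone of 200 µm. Leaving out 1 section gave 0 to 13 higher and 0 to 6 lower. Inside the thymus area 2 genes were lower with 50 µm bins, 3 with the stricter rule, 1 without a filter, and 0 with DESeq2 and with no replicate block. Leaving out 1 section gave 0 to 1 higher and 0 to 35 lower. The causes were not tested. The stricter rule left KO1308 out of both fits within fibroblast-rich bins, and 50 µm bins or a thymus area at 25% left WT1101 out of the last, since 1 class had no bins there. The share of bins in KO1134 was 0.422% when thinned, 0.928% with 50 µm bins, 0.166% with the stricter rule, 1.86% with at least 3 UMIs and 0.2%, and 0.432% without Fn1. In KO1308 it was 0.294% when thinned, 0.0230% with the stricter and 0.465% with the looser rule, 0.0918% without Fn1 and 0.0248% in connected groups of at least 200 bins. In WT1101 it was 0.209%, 0.0880% and 0.587% when thinned, stricter and looser. The interstitial collagen ratios became 1.25 and 0.548 under the stricter rule. The choices to leave Fn1 out of the share and to use connected groups for the edge distance were made after seeing the data. With 33 bins and 44514 UMIs, KO1308 limits what could be detected.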
